A study of Mus musculus with 12 samples.

Results

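Cytoplasmic dynein, its cofactor dynactin and the proteins that couple them to cargo were followed in cultured mouse hippocampal neurons as the cells matured in the dish. The group was a fixed list of 32 genes chosen by function, and 31 of them could be measured among the 20358 genes of the array. Of the 32 genes, 10 encode subunits of the dynein motor, 9 encode dynactin subunits, 10 encode cargo adaptors and 3 encode regulators. Actr1b, a dynactin gene, was not analysed here because no probeset carried its symbol alone. The neurons came from RjOrl:SWISS embryos of embryonic day 17.5 to 18.5 and received no experimental treatment. Total RNA was taken on day 0 and after 1, 3, 6, 12 or 15 days in culture (days in vitro, DIV), with 2 arrays per time and 12 arrays in all, and the labels place the 1 DIV sample at 20 h. Every culture kept past 3 DIV had received 1 µM cytosine arabinoside at that day, an agent that kills dividing cells, so that addition and time cannot be told apart from 6 DIV on. Each value is a log2 signal from a whole-transcript Affymetrix array, and the study's methods describe the 2 replicates as independent and treat the date of the experiment as a batch. The number of animals behind each is not given in the sources used here. The p-values for differences between times therefore rest on the spread among these arrays that is left once time and replicate number are fitted. A constant gap between replicates 1 and 2 does not enter them. The slopes fitted a straight line over hours with replicate number, so departures from that line enter their p-values. The ratios of related genes were tested without a replicate term, so such a gap can enter those p-values.

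Cytoplasmic dynein is the motor that carries cargo toward the minus ends of microtubules, which in axons means toward the cell body. It is built around heavy chains, with intermediate, light intermediate and light chains attached. Dynactin and a coiled-coil adaptor bind it together and turn it into a processive motor, and the regulators Pafah1b1, Nde1 and Ndel1 act on the motor itself. In neurons this machinery returns signalling endosomes, autophagosomes and mitochondria from the axon and positions the nucleus and centrosome during migration.

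Replicate arrays correlated across genes with r of 0.944 to 0.979, and array medians lay between 7.35 and 7.57. Of the neuronal markers, 7 of 11 were higher and 1 was lower at 15 DIV than at 0 DIV, with a mean level of 11.31 to 11.39 at 15 DIV against 10.02 to 10.16 at 0 DIV. Other cell types moved as well. Astrocyte markers passed as higher in 8 of 12 cases, with a mean level of 9.81 to 10.51 at 15 DIV against 8.17 to 8.33 at 0 DIV. Oligodendrocyte lineage markers were higher in 7 of 9 cases, at 8.45 to 8.70 in 15 DIV arrays against 6.77 to 6.83 in 0 DIV arrays. Microglia markers were lower in 7 of 11 cases (6.58 to 6.59 at 15 DIV against 7.57 to 7.64 at 0 DIV), and endothelial and mural markers were lower in 10 of 12 and higher in 1 (6.32 to 6.43 at 15 DIV against 7.25 to 7.35 at 0 DIV). Of 15 proliferation markers none passed in either direction in limma and 3 had an unadjusted p under 0.05, with mean levels of 8.14 to 8.42 at 15 DIV against 8.60 to 8.61 at 0 DIV. The part of these cell types in the results below was not tested, and in bulk RNA fewer cells of a type and less RNA per cell cannot be told apart.

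Between the ends of the culture, 10 of the 31 measured genes passed and the others missed the threshold, which does not show them unchanged. Between 15 DIV and 0 DIV, 8 of the 31 measured genes rose, 2 fell and 21 missed the threshold (limma, Benjamini-Hochberg adjusted p under 0.05 over all genes). Of all 20358 genes, 24.8% passed in this comparison, 16.4% as higher and 8.43% as lower. The list was chosen with earlier results of these data known and was not tested as a list. The genes that rose were the light chain Dynlt3, the intermediate chain Dync1i1, the dynactin subunit Dctn1, the adaptors Hap1, Hook1, Trak2 and Bicd2, and the regulator Ndel1. The genes that fell were the light chain Dynlrb2 and the adaptor Hook3. The median difference over the 31 genes was 0.19 on the log2 scale, beside 0.01 over all genes tested, but the 2 medians were both -0.06 after quantile normalisation, and 0.03 beside -0.15 with each array centred on its median. Those scalings passed 6 genes as higher and 2 as lower, and 5 as higher and 2 as lower, while the share of higher genes among all calls was 48.6% and 49.1%, against 66% in the values as deposited. Trak2 and Bicd2 were lost under both scalings (adjusted p = 0.078 and 0.061 for Trak2, 0.156 and 0.119 for Bicd2), Hook1 with centring (0.056) and Dynlrb2 with quantile normalisation (0.084), whereas Trak1 passed as lower with quantile normalisation (difference -0.55, adjusted p = 0.036). Without the replicate term in the fit, 4 genes passed as higher (Dynlt3, Hap1, Dync1i1 and Dctn1) and none as lower, and the 6 calls lost had an adjusted p of 0.056 for Dynlrb2 to 0.152 for Hook1. Only Dynlt3 and Hap1 kept their call under all 20 alternative settings of the analysis. The 15 DIV and 0 DIV arrays did not overlap for 20 of the 31 genes, against 62.9% of all genes.

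**Figure D1:**
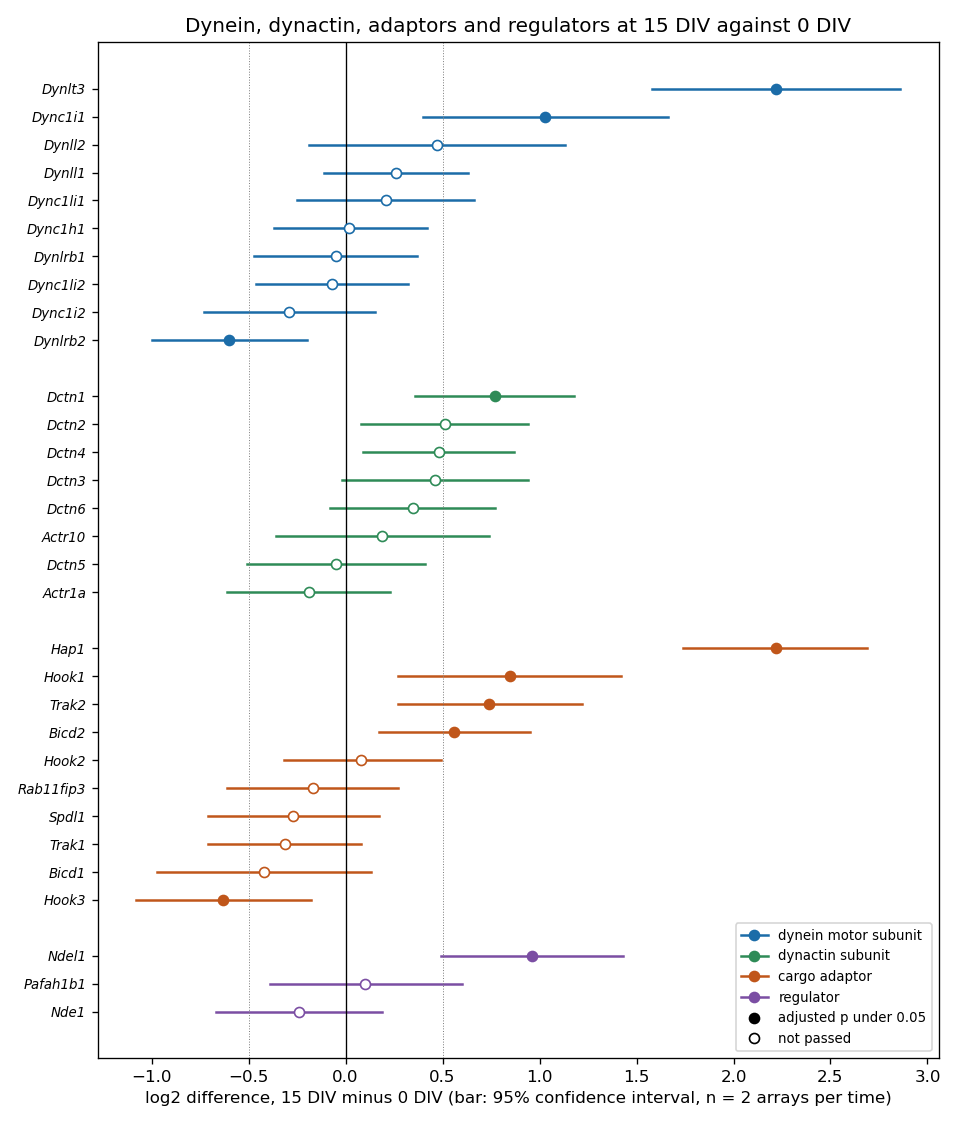
Log2 difference between 15 DIV and 0 DIV (horizontal axis) for each of the 31 measured genes (vertical axis), coloured by role, with points for the limma estimate, bars for its 95% confidence interval, filled points for an adjusted p under 0.05 and open points for genes that did not pass (2 arrays per time), and dotted lines at a difference of 0.5 in either direction. Dynlt3 and Hap1 stand at 2.22, above all others, and Hook3 at -0.63 and Dynlrb2 at -0.60 are the 2 genes that fell.

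The promoters of the 4 genes with the largest rises are printed because these genes carry the main result, and they show what surrounds each start site. They were read from RefSeq on the mouse build GRCm38.p6, which held a promoter for 26 of the 31 measured genes, and each runs from 250 bases before the annotated start to 50 bases after it, 5′ to 3′ on the strand of the gene. They lie at chrX:9662934-9663233 on the minus strand for Dynlt3, chr11:100356092-100356391 on the minus strand for Hap1, chr6:5725389-5725688 on the plus strand for Dync1i1 and chr11:68853086-68853385 on the minus strand for Ndel1. Capitals mark every match, on either strand, to TATAAA (the TATA box), GGGCGG (the GC box), TGACG (the CRE half-site), CCAAT (the CCAAT box) or CACGTG (an E-box).
Dynlt3: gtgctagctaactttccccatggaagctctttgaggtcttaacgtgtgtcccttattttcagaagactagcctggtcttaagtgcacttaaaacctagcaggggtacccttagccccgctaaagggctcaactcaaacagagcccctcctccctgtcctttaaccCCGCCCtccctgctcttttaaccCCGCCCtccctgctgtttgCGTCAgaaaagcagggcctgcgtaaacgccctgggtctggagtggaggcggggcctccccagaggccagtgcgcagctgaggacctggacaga
Hap1: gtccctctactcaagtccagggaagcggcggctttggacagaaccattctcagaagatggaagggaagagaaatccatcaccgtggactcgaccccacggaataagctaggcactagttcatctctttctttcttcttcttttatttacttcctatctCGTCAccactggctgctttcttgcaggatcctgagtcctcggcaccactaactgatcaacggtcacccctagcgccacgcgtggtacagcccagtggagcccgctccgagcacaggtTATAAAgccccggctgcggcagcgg
Dync1i1: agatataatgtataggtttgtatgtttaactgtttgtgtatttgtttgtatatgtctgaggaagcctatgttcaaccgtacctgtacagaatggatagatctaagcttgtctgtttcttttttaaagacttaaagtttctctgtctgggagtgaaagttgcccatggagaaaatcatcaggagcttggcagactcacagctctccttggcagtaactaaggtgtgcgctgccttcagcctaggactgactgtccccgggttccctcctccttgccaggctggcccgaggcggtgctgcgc
Ndel1: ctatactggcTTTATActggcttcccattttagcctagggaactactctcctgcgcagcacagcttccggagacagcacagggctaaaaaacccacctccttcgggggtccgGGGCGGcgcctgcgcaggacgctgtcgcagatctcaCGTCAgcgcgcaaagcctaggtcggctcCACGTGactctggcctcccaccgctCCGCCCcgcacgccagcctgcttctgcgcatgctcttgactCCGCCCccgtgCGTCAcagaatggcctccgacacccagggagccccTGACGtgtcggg
No motif was found in all 4 windows. Dynlt3 held 2 GC boxes and 1 CRE half-site, Hap1 held 1 TATA box and 1 CRE half-site, and Ndel1 held 1 TATA box, 3 GC boxes, 3 CRE half-sites and 1 E-box. Dync1i1 held none of the 5 motifs in this window. Only the first promoter listed for each gene was read, so other start sites of these genes were not examined. Among 32851 promoters of the same length, 13.6% held TATAAA, 35.7% GGGCGG, 20.8% TGACG, 37.4% CCAAT and 7.15% CACGTG. The TATAAA match of Hap1 lay downstream of the annotated start. That of Ndel1 lay on the other strand, near the upstream end of the window. A match here is a description of letters and not of a bound site.

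Among the motor subunits, the light chain Dynlt3 and the intermediate chain Dync1i1 rose, the light chain Dynlrb2 fell, and the heavy chain did not pass. Of 10 subunits, 2 were higher, 1 was lower and 7 did not pass at 15 DIV against 0 DIV. Over all genes, 16.4% were higher and 8.43% lower. The median difference of the subunits was 0.12 (-0.16 after quantile normalisation). Dync1h1, the heavy chain that holds the ATPase motor, measured 10.92 and 11.11 on day 0, 11.13 and 11.36 on day 1, 10.99 and 11.30 on day 3, 11.02 and 11.32 on day 6, 10.73 and 11.24 on day 12, and 10.75 and 11.32 on day 15 (replicates 1 and 2, as in the lists that follow). Replicate 2 lay above replicate 1 at every time, and the 15 DIV arrays enclosed those of 0 DIV. The difference was 0.02 ± 0.18 (log2, SE, adjusted p = 0.940), with a 95% confidence interval of -0.37 to 0.42. The interval also lay within 0.5 of zero for Dync1li2, Dynlrb1 and Hook2, 4 of the 31 genes against 4.76% of all genes, and it lay within 1 for 21 genes against 58.3% of all genes.

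Dynlt3, a light chain of the Tctex type that binds cargo proteins, had the largest change of any motor subunit in the list. Its log2 values were 8.93 and 8.81 on day 0, 9.16 and 9.53 on day 1, 10.00 and 9.30 on day 3, 10.25 and 10.47 on day 6, 10.49 and 11.24 on day 12, and 11.04 and 11.15 on day 15. Both 15 DIV arrays lay far above both 0 DIV arrays, the replicates parted at 3 and 12 DIV, and no array from 1 DIV on came below the 0 DIV pair. The difference was 2.22 ± 0.29 (SE, adjusted p = 3.08e-04), a 4.66-fold higher signal with an interval of 1.58 to 2.86 on the log2 scale, and all 5 probesets of the gene were higher by 1.71 to 3.45. The other light chains in the list did not pass as higher. The related genes Dynlt1a, Dynlt1b, Dynlt1c, Dynlt1f and Dynlt2b were not measured, so Dynlt3 could not be compared with them. Dynll1 and Dynll2, the LC8-type chains, differed by 0.26 and 0.47 (adjusted p = 0.302 and 0.287), and Dynlrb1, of the roadblock type, by -0.05 (adjusted p = 0.869).

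Dynlrb2, the roadblock paralog of Dynlrb1, lay among the genes of lowest signal on the array. It measured 5.73 and 5.76 on day 0, 5.30 and 5.03 on day 1, 5.29 and 5.37 on day 3, 5.12 and 5.03 on day 6, 5.23 and 5.36 on day 12, and 5.23 and 5.05 on day 15. Every later array lay below the 0 DIV pair, and the difference at 15 DIV was -0.60 ± 0.18 (SE, adjusted p = 0.033). Dynlrb1 measured 10.99 and 11.03 on day 0, 10.74 and 11.22 on day 1, 10.83 and 11.13 on day 3, 10.94 and 11.24 on day 6, 10.53 and 11.16 on day 12, and 10.80 and 11.11 on day 15. Its 15 DIV arrays overlapped those of 0 DIV. The Dynlrb2 value rested on 3 of its 6 probesets. Over all 6, the median probeset differed by -0.07, 2 were higher, and the gene's difference was -0.16 (adjusted p = 0.496). The Dynlrb2 call ended when any 1 of the 8 arrays of 0, 1, 6 or 15 DIV was left out, with an adjusted p of up to 0.175.

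The intermediate chains, which join the heavy chain to dynactin and to the light chains, changed in their ratio to each other, which is tested with the other paralogs. Dync1i1, the form found mainly in neurons, measured 9.31 and 9.25 on day 0, 8.01 and 7.74 on day 1, 9.77 and 8.80 on day 3, 10.27 and 10.32 on day 6, 10.25 and 10.57 on day 12, and 10.15 and 10.46 on day 15. The 1 DIV arrays were the lowest of the course, and every array from 6 DIV on lay above the 0 DIV pair. At 15 DIV it was higher by 1.03 ± 0.28 (SE, adjusted p = 0.023), 2.04-fold, in both replicates (0.85 and 1.21) and in 17 of 18 probesets. Dync1i2, the form present in most cells, measured 10.38 and 10.44 on day 0, 10.63 and 10.55 on day 1, 10.63 and 10.68 on day 3, 10.65 and 10.51 on day 6, 9.85 and 10.31 on day 12, and 10.19 and 10.04 on day 15. Its 15 DIV arrays lay below its 0 DIV arrays, and 1 of its 17 probesets was higher. The difference was -0.29 ± 0.20 (SE, adjusted p = 0.324), whereas its slope over hours in culture fell (adjusted p = 0.037). The Dync1i1 call at 15 DIV ended without either 0 DIV array (adjusted p = 0.120 without replicate 1 and 0.088 without replicate 2) or without 15 DIV replicate 2 (difference 0.78, adjusted p = 0.175). The light intermediate chains Dync1li1 and Dync1li2, which bind the adaptors, differed by 0.21 and -0.07 (adjusted p = 0.510 and 0.818).

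Among the dynactin subunits Dctn1 rose and none fell. Of the 8 measured, 6 had a positive difference, 1 passed and the median was 0.40. Among all 20358 genes, 10342 had a positive difference and 16.4% passed as higher. Dctn1, the largest subunit, which holds the microtubule-binding end of dynactin, measured 9.61 and 9.78 on day 0, 10.16 and 10.09 on day 1, 10.51 and 10.27 on day 3, 10.51 and 10.35 on day 6, 10.50 and 10.59 on day 12, and 10.41 and 10.53 on day 15. All 10 later arrays were above both 0 DIV arrays, and from 3 DIV on they lay between 10.27 and 10.59. At 15 DIV it was higher by 0.77 ± 0.18 (SE, adjusted p = 0.011), 1.71-fold, in 27 of 28 probesets. Leaving out 0 DIV replicate 1 or 15 DIV replicate 2 ended this call (adjusted p = 0.098 and 0.082).

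Around Dctn1, the other dynactin subunits did not pass at 15 DIV. Dctn2, the dynamitin subunit of the shoulder, differed by 0.51 (adjusted p = 0.084) and had a rising slope (adjusted p = 0.036). It passed at 12 DIV by 0.59 (adjusted p = 0.049), but that call ended under 12 of 19 alternatives. Among them were the fit without the replicate term (adjusted p = 0.142), quantile normalisation (0.148) and centring (0.101). Without 0 DIV replicate 1, the Dctn2 difference at 12 DIV was 0.38. Its shoulder partner Dctn3 differed by 0.46 (adjusted p = 0.155). Of the pointed-end complex, Dctn4 differed by 0.48 (adjusted p = 0.075), Dctn6 by 0.35 (adjusted p = 0.225), Actr10 by 0.19 (adjusted p = 0.622) and Dctn5 by -0.05 (adjusted p = 0.885). Actr1a, the actin-related protein that forms the filament, differed by -0.19 (adjusted p = 0.522). The dynactin median moved with the scaling of the arrays and was 0.11 after quantile normalisation.

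The cargo adaptors differed by -0.63 to 2.22 between 15 and 0 DIV. Of 10 adaptors, 4 were higher, 1 was lower and 5 did not pass, and their median difference was -0.04. The shares over all genes were 16.4% higher and 8.43% lower. Hap1, the huntingtin-associated protein, links dynactin and kinesin-1 to vesicles. It measured 7.79 and 7.76 on day 0, 8.08 and 7.48 on day 1, 8.04 and 8.03 on day 3, 8.52 and 8.41 on day 6, 9.56 and 9.56 on day 12, and 10.29 and 9.69 on day 15. Values stayed near the 0 DIV level up to 3 DIV, and all 4 arrays of 12 and 15 DIV stood above every earlier array. At 15 DIV the difference was 2.22 ± 0.22 (SE, adjusted p = 5.53e-05), 4.65-fold, with 2.50 in replicate 1 and 1.93 in replicate 2. All 15 probesets were higher, by 0.65 to 2.45.

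**Figure D2:**
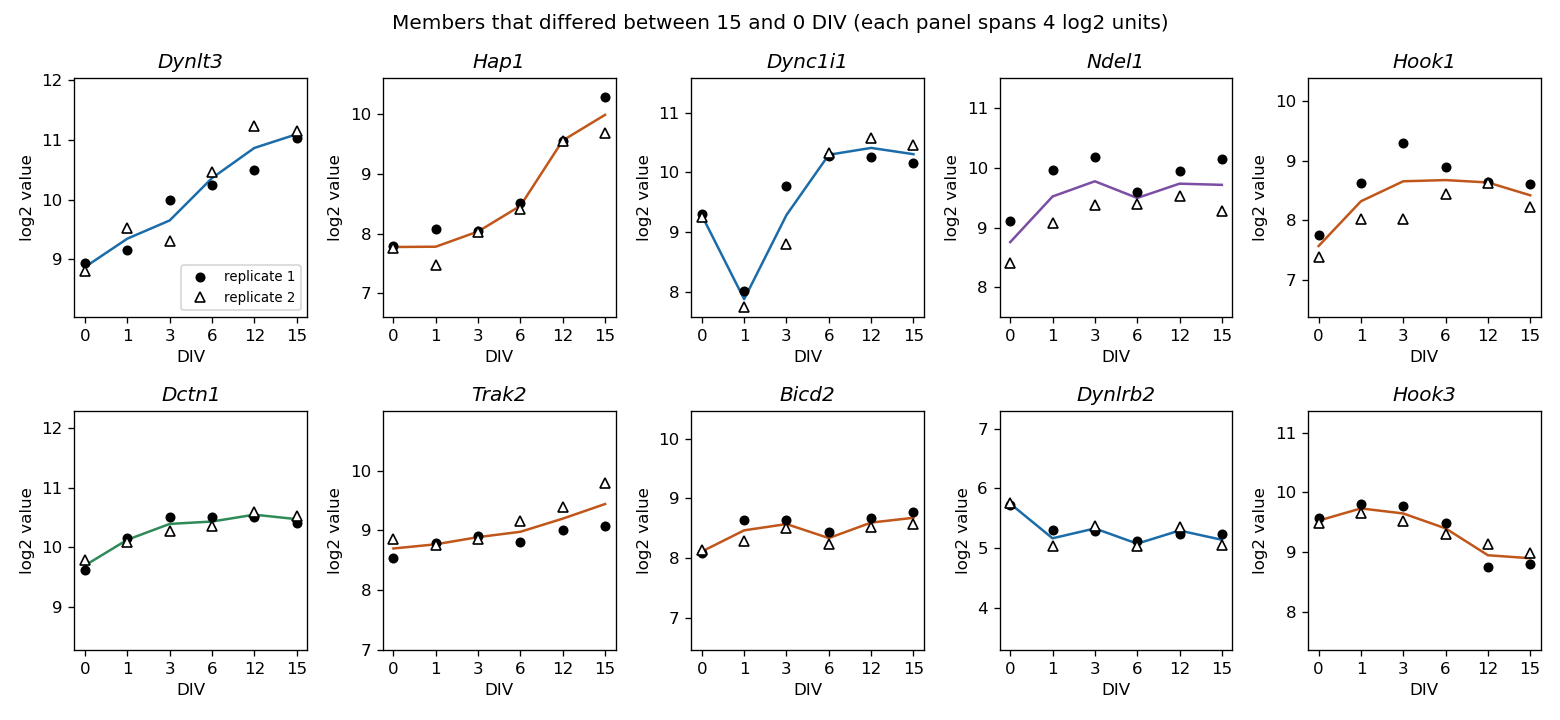
Log2 value (vertical axis, 4 log2 units in every panel) against days in vitro (horizontal axis) for the 10 genes that differed between 15 and 0 DIV, with filled circles for replicate 1, open triangles for replicate 2 and a line through their mean. Dynlt3 ends at 11.04 and 11.15 and Hap1 at 10.29 and 9.69 at 15 DIV, and Dync1i1 is lowest at 1 DIV, at 8.01 and 7.74.

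The Hook proteins, which tie dynein to endosomes, did not move as one family. Hook1 measured 7.75 and 7.39 on day 0, 8.62 and 8.02 on day 1, 9.29 and 8.02 on day 3, 8.90 and 8.45 on day 6, 8.64 and 8.63 on day 12, and 8.61 and 8.23 on day 15. Its 0 DIV arrays were the lowest of the course and 3 DIV replicate 1 was the highest, well above replicate 2 of that time. Hook3 measured 9.57 and 9.48 on day 0, 9.81 and 9.65 on day 1, 9.77 and 9.52 on day 3, 9.49 and 9.30 on day 6, 8.75 and 9.14 on day 12, and 8.80 and 8.99 on day 15. The 4 arrays of 12 and 15 DIV were its lowest. At 15 DIV, Hook1 was higher by 0.85 ± 0.26 (SE, adjusted p = 0.036) and Hook3 fell by 0.63 ± 0.20 (SE, adjusted p = 0.045). None of 23 Hook3 probesets was higher, and 19 of 22 Hook1 probesets were, with differences of -0.27 to 2.19. Hook2, the paralog known from the centrosome, measured 6.50 and 6.22 on day 0, 6.78 and 6.24 on day 1, 7.20 and 6.67 on day 3, 6.93 and 6.41 on day 6, 6.69 and 6.47 on day 12, and 6.53 and 6.35 on day 15. Its replicate spread at each time exceeded its difference of 0.08 (adjusted p = 0.783). The Hook1 and Hook3 calls each ended without any 1 of the 8 arrays of 0, 1, 6 or 15 DIV (adjusted p up to 0.188 for Hook1 and 0.279 for Hook3).

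The mitochondrial adaptors Trak1 and Trak2, which bind both dynein and kinesin-1, had slopes over hours of opposite sign. Trak2 measured 8.54 and 8.85 on day 0, 8.78 and 8.75 on day 1, 8.91 and 8.86 on day 3, 8.80 and 9.15 on day 6, 9.00 and 9.39 on day 12, and 9.08 and 9.80 on day 15. Its 15 DIV arrays were each the highest of their replicate, and replicate 2 stood above replicate 1 at 15 DIV. Trak1 measured 9.02 and 9.15 on day 0, 8.87 and 9.23 on day 1, 8.85 and 9.16 on day 3, 8.80 and 8.97 on day 6, 8.37 and 8.91 on day 12, and 8.65 and 8.89 on day 15. Both of its 15 DIV arrays lay below both 0 DIV arrays. At 15 DIV, Trak2 was higher by 0.74 ± 0.22 (SE, adjusted p = 0.028), with all 18 probesets higher and a rising slope (adjusted p = 0.0036). Trak1 differed by -0.31 (adjusted p = 0.240, and 0.036 after quantile normalisation) with a falling slope (adjusted p = 0.039). Besides both scalings and the fit without the replicate term (adjusted p = 0.081), the Trak2 call ended without 0 DIV replicate 1 (adjusted p = 0.134), 0 DIV replicate 2 (0.102) or 15 DIV replicate 2 (difference 0.48, adjusted p = 0.240).

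Bicd1 and Bicd2 connect dynein to Rab6 vesicles and to the nuclear envelope. Bicd2 measured 8.08 and 8.14 on day 0, 8.64 and 8.29 on day 1, 8.64 and 8.50 on day 3, 8.44 and 8.23 on day 6, 8.67 and 8.52 on day 12, and 8.78 and 8.57 on day 15. Both 15 DIV arrays lay above both 0 DIV arrays, by 0.56 ± 0.18 (SE, adjusted p = 0.039). Of its 11 probesets 8 were higher, with a median difference of 0.29 and a range of -0.05 to 0.86. Bicd1 measured 8.53 and 8.01 on day 0, 8.59 and 7.93 on day 1, 8.40 and 7.89 on day 3, 8.21 and 7.94 on day 6, 8.07 and 7.98 on day 12, and 7.65 and 8.05 on day 15. Replicate 1 was above replicate 2 up to 12 DIV and below it at 15 DIV, and the difference at 15 DIV was -0.42 (adjusted p = 0.258). The Bicd2 call ended without any 1 of the 8 arrays of 0, 1, 6 or 15 DIV (adjusted p up to 0.245), and with all its probesets the difference was 0.32 (adjusted p = 0.081). The remaining adaptors did not pass: Rab11fip3, which serves recycling endosomes, differed by -0.17 (adjusted p = 0.585), and Spdl1, which brings dynein to kinetochores, by -0.27 (adjusted p = 0.360), at a low signal from 1 probeset listed under its older symbol.

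Of the 3 regulators, only Ndel1 passed. Ndel1, which binds dynein together with the lissencephaly protein Pafah1b1, measured 9.11 and 8.40 on day 0, 9.96 and 9.08 on day 1, 10.18 and 9.37 on day 3, 9.60 and 9.39 on day 6, 9.94 and 9.53 on day 12, and 10.15 and 9.28 on day 15. Replicate 1 was above replicate 2 at every time, and within each replicate the 0 DIV array was the lowest. It was higher at 15 DIV by 0.96 ± 0.21 (SE, adjusted p = 0.0072), 1.94-fold. Of its 13 probesets 11 were higher, and their differences ran from -0.80 to 1.22. Nde1, its paralog known from dividing neural progenitors, measured 8.58 and 8.33 on day 0, 8.15 and 7.77 on day 1, 8.35 and 7.50 on day 3, 8.33 and 7.70 on day 6, 8.44 and 8.09 on day 12, and 8.53 and 7.90 on day 15. Its difference was -0.24 (adjusted p = 0.418), and the arrays of 15 and 0 DIV overlapped. Pafah1b1 measured 8.46 and 8.95 on day 0, 8.78 and 8.92 on day 1, 9.12 and 9.06 on day 3, 8.77 and 9.05 on day 6, 8.38 and 9.00 on day 12, and 8.91 and 8.71 on day 15. Its 15 DIV arrays lay between those of 0 DIV, and the difference was 0.10 (adjusted p = 0.785). The Ndel1 call was lost without the replicate term (adjusted p = 0.131) and without 15 DIV replicate 1 (0.084).

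The earlier times, which share the 0 DIV arrays, gave the time at which each gene first passed, which is not an order of change. The adjustment was made for each time separately and was stricter at early times, where fewer of all genes passed. Ndel1 missed at 1 DIV with a difference of 0.77 (limma, adjusted p = 0.123) and passed at 6 DIV with 0.74 (adjusted p = 0.043). At an unadjusted p under 0.05, the counts were 7, 9, 9, 12 and 12 at 1, 3, 6, 12 and 15 DIV. At 1 DIV, 1 gene passed against 1.05% of all genes (0.766% higher and 0.280% lower): Dync1i1 fell by 1.40 (adjusted p = 0.049), with 17 of 18 probesets lower. At 3 DIV, 2 genes were higher and none was lower, against 6.11% of all genes (4.70% higher and 1.41% lower). They were Hook1 by 1.08 (adjusted p = 0.038) and Ndel1 by 1.02 (adjusted p = 0.021). At 6 DIV, 5 genes were higher and 1 was lower against 13.7% of all genes (9.88% higher and 3.85% lower), among them Dync1i1 by 1.02 and Dynlt3 by 1.49, and the gene that fell was Dynlrb2, with a difference of -0.67. At 12 DIV, 7 genes were higher and none lower, against 24.8% of all genes (15.9% higher and 8.94% lower), and Hap1 passed there first, by 1.78. Of these first calls, Hap1 at 12 DIV held under all 19 alternatives run on it. Dynlt3 at 6 DIV (adjusted p = 0.0069) was lost only without 0 DIV replicate 2 (0.061) or 6 DIV replicate 2 (0.071).

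Other first calls were less stable. Dctn1 at 6 DIV (difference 0.74, adjusted p = 0.024) was lost after quantile normalisation (0.054) and without any 1 of the arrays of 0 or 6 DIV (up to 0.187). Dync1i1 at 1 DIV was lost without the replicate term (adjusted p = 0.079) and with the mean of the selected probesets (0.056). It was also lost without any 1 of the 8 arrays of 0, 1, 6 or 15 DIV (difference -1.30 without 1 DIV replicate 2). The rise of Dync1i1 at 6 DIV was lost without the replicate term (0.057) and after quantile normalisation (0.054). Leaving out any 1 array of 0, 1 or 6 DIV ended it too (difference 0.92 without 6 DIV replicate 2). Hook1 at 3 DIV was lost without the term (adjusted p = 0.167), without 3 DIV replicate 1 (difference 0.63, adjusted p = 0.369) and without any 1 of the 8 arrays of 0, 1, 6 or 15 DIV (up to 0.210). Ndel1 at 3 DIV was lost without the term (adjusted p = 0.222), 3 DIV replicate 1 (0.212) or either 0 DIV array (0.112). Dynlrb2 at 6 DIV was lost without any 1 array of 0, 1 or 6 DIV (up to 0.202), and with all probesets its difference was -0.17 (adjusted p = 0.525).

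**Figure D3:**
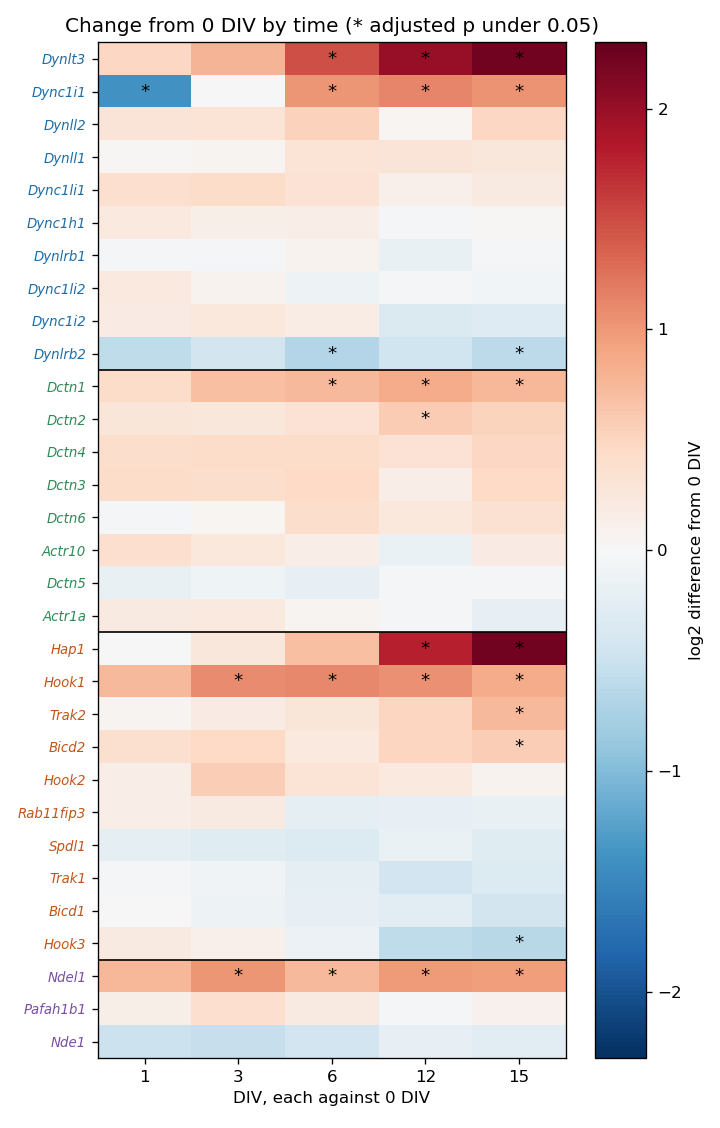
Log2 difference from 0 DIV (colour) for each of the 31 measured genes (rows, coloured by role) at 1, 3, 6, 12 and 15 DIV (columns), with asterisks where the limma adjusted p was under 0.05. Dync1i1 is lower at 1 DIV and higher from 6 DIV on, and the asterisks number 1, 2, 6, 7 and 10 from left to right. The adjustment was made for each time separately, so these counts do not measure how the changes built up.

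Between neighbouring times, none of the 31 genes passed in limma for 3 against 1, 6 against 3, 12 against 6 or 15 against 12 DIV, where 0.177%, 0.108%, 0.0295% and 0% of all genes passed. At an unadjusted p under 0.05 the counts were 2, 3, 2 and 0. Over the whole course the F test passed 6 genes against 22.0% of all genes: Dync1i1, Dynlt3, Dctn1, Hook3, Hap1 and Ndel1. The slope over hours rose for 6 genes against 17.4% of all genes (Dync1i1, Dynlt3, Dctn1, Dctn2, Trak2 and Hap1) and fell for 3 against 12.5% (Dync1i2, Hook3 and Trak1). In the F test, the slope or at any time against 0 DIV, 13 of the 31 genes passed, against 38.8% of all genes.

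Several related subunits and adaptors changed in their ratio to each other. For 10 pairs of paralogs the log2 ratio on each array was set against hours in culture over the 12 arrays, and 5 pairs passed by both Pearson's r and Spearman's rho (two-sided permutation tests with 100000 resamples, adjusted over the 10 pairs). The 12 arrays were shuffled freely, with no replicate term, so a constant gap between replicates can enter these p-values. The array's probes differ between genes, so only the change of a ratio is given and not its level. Trak1 over Trak2 fell, with r = -0.93 (p = 5.00e-05, adjusted p = 5.00e-04) and rho = -0.88 (p = 3.80e-04, adjusted p = 0.0038), and the log2 ratio changed by -1.06 at 15 DIV against 0 DIV. Dync1i1 over Dync1i2 rose, with r = 0.81 (p = 0.0019, adjusted p = 0.0064) and rho = 0.85 (p = 0.0010, adjusted p = 0.0051), by 1.32 at 15 DIV. Both held within each replicate (r = -0.89 and -0.97 for the Trak pair, 0.78 and 0.84 for the intermediate chains) and without the 2 arrays farthest from the median time (r = -0.92 and 0.80).

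The Hook and Bicd ratios moved as well. Hook1 over Hook3 had r = 0.79 (p = 0.0036, adjusted p = 0.0072) and rho = 0.81 (p = 0.0025, adjusted p = 0.0085), with a change of 1.48 at 15 DIV. Hook2 over Hook3 had r = 0.78 (p = 0.0031, adjusted p = 0.0072) and rho = 0.79 (p = 0.0035, adjusted p = 0.0087), with a change of 0.72. These 2 ratios share Hook3, the member that fell. Without the 2 farthest arrays r was 0.83 and 0.80, and within replicates 1 and 2 it was 0.83 and 0.88 for the first and 0.91 and 0.87 for the second. Bicd1 over Bicd2 had r = -0.75 (p = 0.0018, adjusted p = 0.0064) and rho = -0.76 (p = 0.0058, adjusted p = 0.012), but its change at 15 DIV was -1.57 in replicate 1 and -0.39 in replicate 2, and r was -0.93 and -0.57 within them and -0.65 without the 2 farthest arrays. Hook1 over Hook2 passed by rho (0.69, p = 0.016, adjusted p = 0.027), with r = 0.62 (p = 0.030, adjusted p = 0.050).

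**Figure D4:**
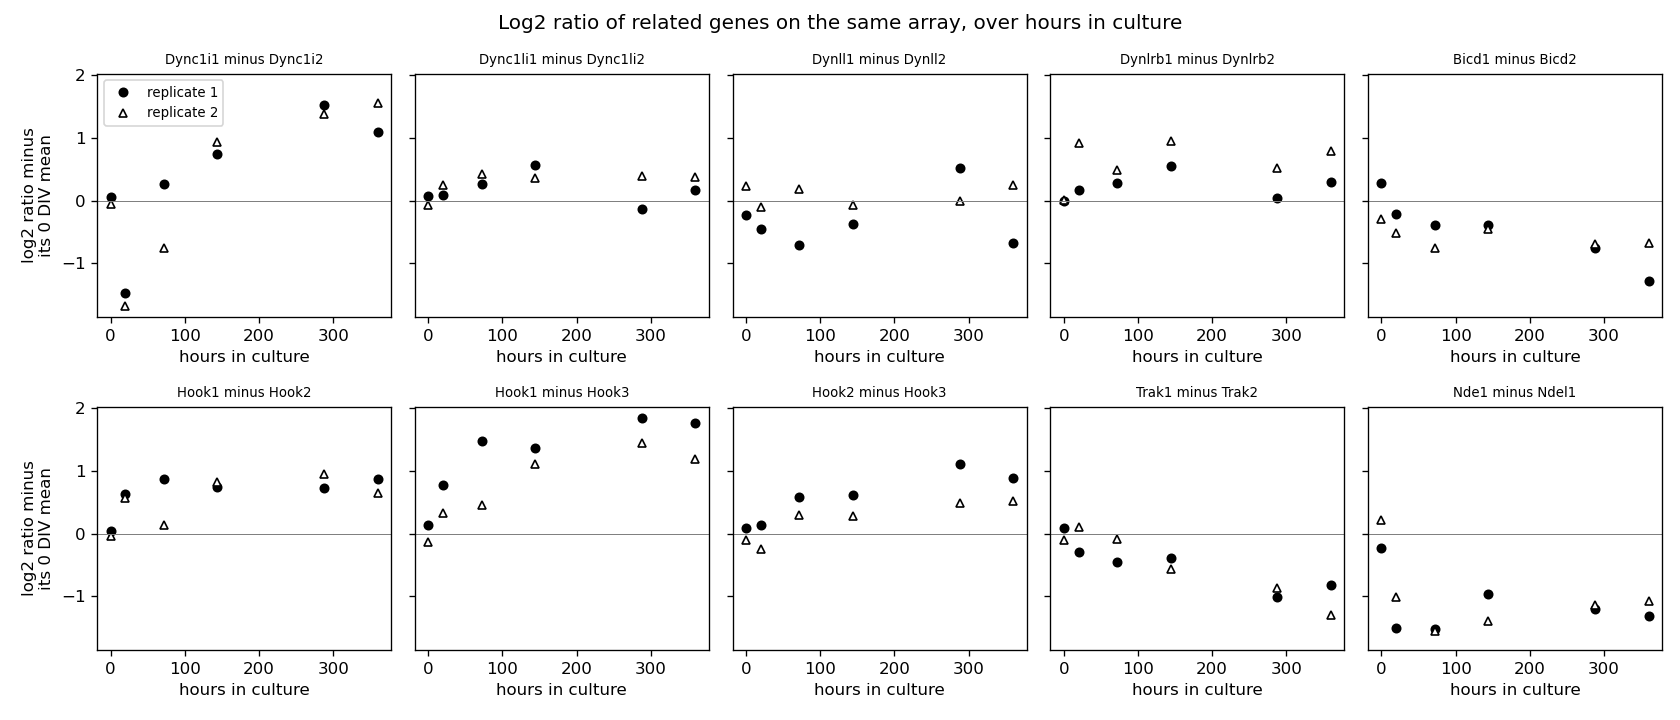
Log2 ratio of 2 related genes on the same array, minus its mean at 0 DIV (vertical axis), against hours in culture (horizontal axis), for the 10 pairs, with filled circles for replicate 1 and open triangles for replicate 2. At 15 DIV the mean change is -1.06 for Trak1 over Trak2 and 1.32 for Dync1i1 over Dync1i2, which is lowest at 20 h.

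Nde1 over Ndel1 differed by -1.20 at 15 DIV against 0 DIV (-1.10 and -1.30 in the replicates) but did not follow hours in culture (r = -0.33, p = 0.303, adjusted p = 0.432, rho = -0.25, p = 0.431, adjusted p = 0.479). Both 1 DIV arrays already lay below both 0 DIV arrays. The ratios of the light intermediate chains, of Dynll1 to Dynll2 and of Dynlrb1 to Dynlrb2 did not pass (r between 0.16 and 0.21, p = 0.509 to 0.621, adjusted p = 0.621, rho between 0.17 and 0.44).

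The wider transport machinery was read from further lists. For comparison, 16.4% of all genes were higher at 15 DIV than at 0 DIV and 8.43% were lower. Of 12 dynein and dynactin genes listed outside the 32, only 5 were measured. Among these, 1 was higher in limma at 15 DIV than at 0 DIV, the actin-capping subunit Capzb (difference 0.60, adjusted p = 0.032). Of 18 other adaptors and regulators 3 were higher and 3 were lower. Mapk8ip1, a scaffold for JNK signalling and transport, rose by 0.91 (adjusted p = 0.011), whereas Numa1, which anchors dynein at the spindle poles and cell cortex, differed by -1.07 (adjusted p = 0.0015) and Ninl, a centrosomal protein, by -0.97 (adjusted p = 0.0024). Kinesin-1, which moves cargo in the opposite direction, had 3 of 6 genes higher and none lower, namely the light chain Klc2 by 0.97 (adjusted p = 0.0033) and the heavy chains Kif5a by 0.91 (adjusted p = 0.0031) and Kif5c by 0.53 (adjusted p = 0.049).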

How the data were processed

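The deposited values were log2 probeset signals that the authors made from Affymetrix Mouse Gene 1.0 ST arrays, hybridised with cDNA amplified from 25 ng of total RNA, by RMA (background correction, quantile normalisation and median-polish summary). RMA compresses low signals, so folds of weak genes are understated. Of 241576 probesets, 212138 carried 1 gene symbol, 4672 carried several, 24766 carried none, and 2743 outdated symbols were updated. The 50% most variable probesets of each gene (interquartile range) were combined by median polish into 20358 gene values. limma 3.58.1 in R 4.3.3 fitted time and replicate number over all 12 arrays, with Benjamini-Hochberg adjustment over all genes, 5 residual and 5.64 prior degrees of freedom. Replicate numbers come from the labels. Same-numbered arrays deviated together, with correlations of 0.11 to 0.46 over 15 pairs of times. Depth is not defined for arrays, and their number limits the precision. The 32 genes and all lists were chosen with earlier results of these data known. Values per array are given for genes past an adjusted p of 0.05 at 15 against 0 DIV in the same direction in both replicates, for Dync1h1, Dctn1 and Pafah1b1, and for the paralogs of any of these. Alternatives covered the replicate term, probeset choice and summary, scaling, a filter on low signal, variance estimation, time scale and omission of each array. Data were simulated for 15 against 0 DIV over 20358 genes. There limma recovered 66 of 66 genes changed by 2, 32 of 66 changed by 1 and 1 of 68 changed by 0.5 (log2). These genes were a far smaller share than the 24.8% that passed in the arrays, so the adjustment was stricter in the simulation. Its recovery does not give the detection rate of the real comparison, where Bicd2 passed with a difference of 0.56. Promoters came from RefSeq (GRCm38.p6).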

Additional observations from a re-analysis of the deposited data

How the results depend on the processing

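None of the 10 genes called at 15 against 0 DIV changed direction under the 20 alternatives (19 for Dynlrb2, which the filter on low signal removed), but 8 of the 10 calls ended under at least 1 of them, and 4 genes not called passed under at least 1. Genes not called with differences near 0 did change sign, such as Dync1h1 (-0.26 to 0.16), Hook2 (-0.08 to 0.20) and Pafah1b1 (-0.15 to 0.35). The cause of these shifts was not tested. Without the replicate block, 4 genes were higher and 0 lower at 15 DIV, 0 changed at 1 DIV, 0 at 3 DIV, 2 at 6 DIV and 4 at 12 DIV, and 3 passed the F test. With all probesets 1 gene was lower, and the median of adaptors and regulators together was -0.03, against 0.08. The mean of the probesets left 0 calls at 1 DIV. Quantile normalisation gave 3 calls at 6 DIV, 8 falling slopes and medians of 0.11 for dynactin, -0.16 for motor subunits and -0.13 for adaptors and regulators. Centring each array gave 5 higher genes, 6 falling slopes and medians of 0.24 for dynactin and -0.08 for adaptors and regulators. The filter on low signal left 1 lower gene and a median of 0.09 for adaptors and regulators, a trended robust variance left 1 lower gene, and the fit on 0 and 15 DIV alone left 0. A margin of 1 in place of 0.5 held 21 genes.

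When each array was left out in turn, the genes higher at 15 DIV numbered 3 to 8 (lowest without 0 DIV replicate 1 or 15 DIV replicate 2) and the genes lower 0 to 2. Changed genes numbered 0 to 1 at 1 DIV, 0 to 3 at 3 DIV, 0 to 7 at 6 DIV (lowest without 0 DIV replicate 2 or 6 DIV replicate 2) and 3 to 7 at 12 DIV (lowest without 0 DIV replicate 1). Between neighbouring times the count stayed at 0, except 1 for 12 against 6 DIV without 12 DIV replicate 2. The F test passed 3 to 8 genes, and slopes rose for 4 to 7 and fell for 1 to 4. The medians at 15 DIV ranged between -0.16 and 0.15 for adaptors, 0.23 and 0.51 for dynactin, -0.01 and 0.19 for motor subunits, -0.15 and 0.35 for regulators, and -0.06 and 0.14 for adaptors and regulators together. With 2 arrays per time, changes of 1 or less on the log2 scale were often missed in the simulated data. Far fewer genes changed there than passed in the arrays, so the rate of missed changes in the arrays is not known.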
